A study of Mus musculus with 5 samples.

Results

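The transcripts of 7 mouse genes, Arf1, Plaur, Dvl2, Rhoa, Actb, Insr and Mtor, were followed through an anti-Staufen1 immunoprecipitation of muscle stem cell RNA. They were picked by symbol as transcripts that Staufen1 is reported to bind or regulate in other cells, and all 7 symbols were found, each as 1 row, among the 11194 genes of the deposited table. The immunoprecipitates came from skeletal muscle stem cells (MuSCs), the resident precursors of muscle fibres, which the study's design text calls quiescent. 3 libraries were labelled wild type (genotype Stau+/+) and 2 were labelled knockout (Stau-/-). Age, sex, strain and the structure of the Stau allele are not given in the labels, and the cells of both groups received the same antibody and the same washes. No input library was used here, so a count reflects both how much of a transcript the cells held and how much of it the antibody recovered. In such bulk samples, fewer cells of a type and less RNA per cell cannot be told apart either. The labels leave unsaid whether replicate libraries were made from different mice, so the p-values refer to the spread among these libraries, and that spread may be technical.

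Staufen1 is a double-stranded RNA binding protein that recognises base-paired stems, often in the 3' untranslated region of a messenger RNA. When it is bound downstream of a stop codon it can recruit the helicase Upf1, and the transcript is then degraded once it is translated, a route called Staufen1-mediated decay. The same protein also takes part in RNA transport and in translational control. Arf1 is the best described decay target, and Dvl2 was reported as a Staufen1-regulated transcript in cultured myoblasts. Insr is known in this context for an alternative exon that responds to Staufen1, so the 7 transcripts are not all decay targets in the strict sense. The counts measured recovery and could not show decay.

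Depth differed between the groups. Totals ran from 33846391 to 105473455 counts in the wild type libraries and were 9370244 and 3091302 counts in knockout 1 and 2. Stau1 itself had 116.4 ± 11.4 CPM (the count scaled to a common library total, with TMM factors; SD, n = 3) in wild type and 109.9 ± 1.19 CPM (SD, n = 2) in knockout, with overlapping libraries, so its RNA did not tell the labels apart and every direction below rests on them. All 10 markers on the muscle stem cell list were present in the table, with a summed level of 4740 to 5528 CPM in wild type and of 2961 and 3039 CPM in knockout, and 3 of them (Myod1, Sdc4 and Spry1) were called higher in wild type. Sdc4 alone had means of 2016 CPM in wild type and 1052 CPM in knockout. Libraries did not overlap for 8 of the 10, but they did for Pax7 and Itga7, with log2 fold changes (wild type over knockout) of 0.14 and 0.02. Among all genes, 1.05% were called higher in wild type. Libraries did not overlap, with wild type higher, for 20.4% of all genes and for 30.0% of those with a mean of at least 100 CPM. Markers of other cell types were present too: the sum over 10 fibro-adipogenic markers was above that of the stem cell markers in wild type 1, wild type 3 and both knockout libraries, and the sum over 10 endothelial markers was above it in knockout 1. The fibro-adipogenic sums in those libraries were 6202, 5561, 3646 and 3638 CPM. Of these, Gsn alone, also on the actin filament list, gave 3170, 2963, 2089 and 2032 CPM. The sums thus do not rank the cell types by their share of the RNA.

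Plaur was the 1 transcript of the 7 that passed the test as higher in wild type than in knockout (edgeR quasi-likelihood test, adjusted p below 0.05). In the opposite direction 0 of the 7 passed. Among all genes tested, 1.05% were called with wild type higher and 1.00% with knockout higher, 2.05% together. Arf1 and Rhoa lay in the same direction as Plaur, with every wild type library above both knockout libraries, but did not pass the adjusted threshold. That pattern of non-overlapping libraries, higher in wild type, was shown by 3 of the 7 transcripts and by 20.4% of all genes; the reverse, knockout higher, was shown by 0 of the 7 and by 18.1% of all genes. At an unadjusted p under 0.05 these same 3 of 7 lay higher in wild type, against 10.4% of all genes. The log2 fold change was above 0 for 3 of the 7 and for 50.3% of all genes. The other 4, Dvl2, Insr, Mtor and Actb, had overlapping libraries and log2 fold changes (wild type over knockout) between -0.29 and -0.13. The median log2 fold change of the 7 was -0.13, beside 0.00 for all genes, whose quartiles were -0.33 and 0.33.

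**Figure D1:**
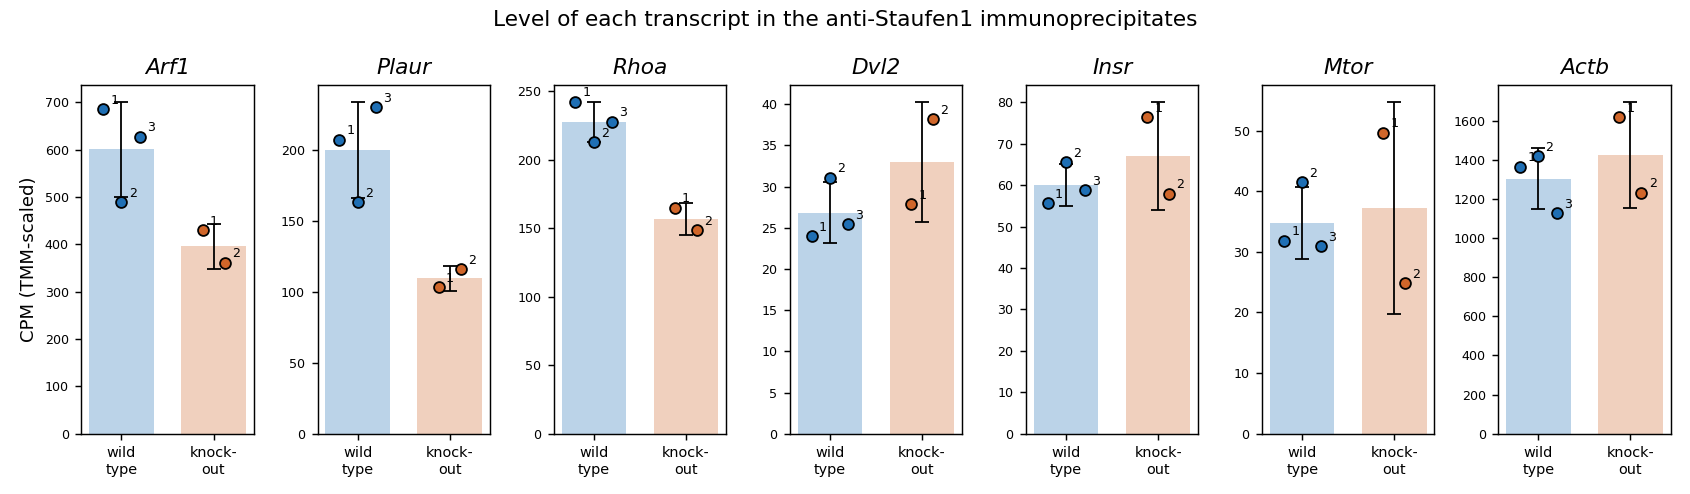
Level of each transcript in CPM (vertical axis, linear, starting at 0, with its own scale in each panel) in the wild type (blue) and knockout (orange) libraries; points are single libraries with their replicate number, bars the group mean and error bars the SD (n = 3 and n = 2). The points of the groups are apart in the panels of Arf1, Plaur and Rhoa and overlap in the other 4.

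Plaur encodes the urokinase receptor, a cell surface protein that holds the protease urokinase (Plau) at the membrane and takes part in cell migration. The gene (ENSMUSG00000046223; chromosome 7, 24462500 to 24475873, plus strand, mm10) had 207.0, 162.9 and 230.0 CPM in wild type 1 to 3 and 103.4 and 115.8 CPM in knockout 1 and 2. All 3 wild type libraries were above both knockout libraries, and the lowest wild type value was still well clear of the higher knockout value. The means were 200.0 ± 34.1 CPM (SD, n = 3) and 109.6 ± 8.79 CPM (SD, n = 2), a 1.83-fold difference. The log2 fold change was 0.87 (SE 0.21, 95% interval 0.43 to 1.31), with an adjusted p of 0.0459 in the edgeR test, higher in 3 of 3 wild type libraries. The call sat close to the threshold and was lost with 4 of the 5 libraries left out in turn. The adjusted p in edgeR was 0.119 without wild type 1, 0.163 without wild type 3, 0.135 without knockout 1 and 0.103 without knockout 2, with log2 fold changes between 0.75 and 0.95. It was also lost with the RLE factors that DESeq2 uses (0.85, edgeR adjusted p = 0.0502), with total counts (0.83, edgeR adjusted p = 0.0554) and with limma-voom (0.89, adjusted p = 0.187). In the other 7 of the 14 alternative fits, the DESeq2 test among them, Plaur stayed called. The fit with no filter is among these 7 and was the main fit again, since the filter removed no gene.

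Arf1 encodes a small GTPase of the Golgi that recruits vesicle coats, and its transcript is the one through which Staufen1-mediated decay was first worked out. The gene (ENSMUSG00000048076; chromosome 11, 59211412 to 59228270, on the minus strand of mm10) gave 685.9, 489.0 and 627.2 CPM in wild type 1 to 3 against 429.9 and 361.7 CPM in knockout 1 and 2. The groups did not overlap, although wild type 2 lay nearer to knockout 1 than to the other wild type libraries. With means of 600.7 ± 101.1 CPM (SD, n = 3) and 395.8 ± 48.2 CPM (SD, n = 2), the difference was 1.52-fold. The log2 fold change of 0.60 (SE 0.20, 95% interval 0.18 to 1.02) had an unadjusted p of 0.00881 and an adjusted p of 0.109 in the edgeR test. Arf1 passed the threshold only when wild type 2 was left out (0.73, edgeR adjusted p = 0.0492) or with DESeq2 (0.58, adjusted p = 0.0469).

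Rhoa encodes the GTPase that drives actin stress fibres and myosin contraction. It (ENSMUSG00000007815; chromosome 9, 108306205 to 108337939, plus strand, mm10) had 242.2, 212.5 and 227.6 CPM in wild type 1 to 3 and 164.7 and 148.6 CPM in knockout 1 and 2. The replicates were close together within each group and the groups did not overlap. Means were 227.4 ± 14.9 CPM (SD, n = 3) and 156.6 ± 11.4 CPM (SD, n = 2), a 1.45-fold difference with a log2 fold change of 0.54 (SE 0.18, 95% interval 0.15 to 0.93). The unadjusted p was 0.0107 and the adjusted p 0.120 in edgeR, and Rhoa passed the threshold in none of the 14 alternative fits, where the adjusted p ran from 0.0562 to 0.354.

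Dvl2 encodes a dishevelled protein, which carries the Wnt signal from Frizzled receptors into the cell. The gene (ENSMUSG00000020888; chromosome 11, 70000595 to 70012301, plus strand, mm10) had 23.98, 31.1 and 25.5 CPM in wild type 1 to 3 against 27.9 and 38.2 CPM in knockout 1 and 2. Knockout 2 was the highest library and knockout 1 lay within the wild type range. The log2 fold change was -0.29 (SE 0.26, 95% interval -0.85 to 0.28), with an adjusted p of 0.580 in the edgeR test. A difference of more than 1 log2 unit in either direction lay outside this interval. The Dvl2 model in the table runs past the RefSeq end of the gene into Acadvl, a mitochondrial acyl-CoA dehydrogenase gene on the opposite strand. The pair shares 1151 exon bases, 18.3% of the Dvl2 model and 42.9% of the Acadvl model, so without a stated strand setting the Dvl2 count is uncertain. Acadvl had 54.7 ± 7.59 CPM (SD, n = 3) in wild type and 47.3 ± 22.8 CPM (SD, n = 2) in knockout, with a log2 fold change of 0.18 (SE 0.28, adjusted p = 0.761 in edgeR).

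Insr encodes the insulin receptor. The gene (ENSMUSG00000005534; chromosome 8, 3150922 to 3279617, on the minus strand of mm10) gave 55.6, 65.6 and 58.8 CPM in wild type 1 to 3 and 76.3 and 57.9 CPM in knockout 1 and 2. Knockout 1 was the highest library, and knockout 2 fell among the wild type libraries. The log2 fold change was -0.17 (SE 0.21, 95% interval -0.63 to 0.28, adjusted p = 0.701 in edgeR). Counts per gene do not separate the isoforms with and without the alternative exon, so that reported effect of Staufen1 was not examined here.

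Mtor encodes the kinase that links nutrients and growth factors to translation, and a switch in its signalling accompanies the exit of muscle stem cells from deep quiescence. The gene (ENSMUSG00000028991; chromosome 4, 148448611 to 148557683, plus strand, mm10) had 31.8, 41.5 and 30.9 CPM in wild type 1 to 3 and 49.6 and 24.8 CPM in knockout 1 and 2. The knockout libraries thus held both the highest and the lowest value of the 5. The value of knockout 2 rested on 78 counts, with a 95% exact Poisson interval of 19.6 to 31.0 CPM, and that of knockout 1 on 474 counts, with an interval of 45.3 to 54.3 CPM. These intervals cover counting error only, and they did not meet, so the knockout libraries differed by more than counting error. The log2 fold change was -0.13 (SE 0.29, 95% interval -0.75 to 0.49, adjusted p = 0.847 in edgeR); it was 0.48 without knockout 1 and -0.52 without knockout 2. Angptl7 lies within an intron of Mtor on the opposite strand and shares 0 exon bases with it.

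Actb encodes cytoplasmic beta-actin, whose messenger is a standard example of a localised transcript. The gene (ENSMUSG00000029580; chromosome 5, 142903115 to 142906754, minus strand, mm10) was the most abundant of the 7. It had 1363, 1419 and 1125 CPM in wild type 1 to 3 and 1617 and 1231 CPM in knockout 1 and 2, with knockout 2 inside the wild type range. Its log2 fold change of -0.13 (SE 0.19) had an adjusted p of 0.752 in edgeR, and the 95% interval of -0.54 to 0.28 leaves out an enrichment in wild type as large as that estimated for Plaur. The last 401 exon bases of Actb overlap the long noncoding RNA gene Gm38733, and the RefSeq annotation of the same assembly names 1 processed copy, Actb-ps1, so some reads may be shared.

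**Figure D2:**
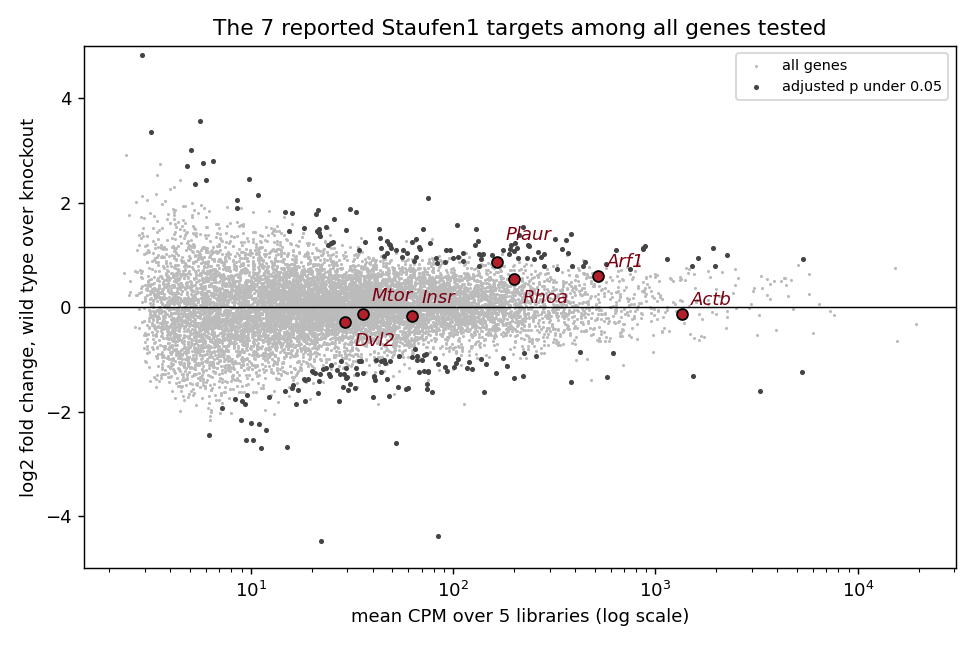
Log2 fold change, wild type over knockout (vertical axis), against the mean CPM over the 5 libraries (horizontal log axis) for all 11194 genes tested; dark points passed an adjusted p of 0.05 and red points are the 7 transcripts. Plaur, the 1 transcript of the 7 that passed, lies at 0.87. Arf1 and Rhoa lie just beneath the called genes of like abundance, and the other 4 within 0.29 of zero.

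The 7 transcripts covered a wide range of abundance. Per length (RPKM, the CPM divided by the exon length in kilobases), the order in wild type was Actb (486.2 ± 58.2), Arf1 (287.6 ± 48.4), Plaur (143.2 ± 24.4), Rhoa (107.0 ± 6.99), Insr (6.23 ± 0.527), Dvl2 (4.26 ± 0.595) and Mtor (3.44 ± 0.581), each as mean ± SD of 3 libraries. Neighbours in this order did not overlap, except Dvl2 and Mtor. In knockout the order was the same, with overlaps between Plaur (78.5 ± 6.297) and Rhoa (73.7 ± 5.38), between Insr and Dvl2, and between Dvl2 and Mtor. The 3 transcripts whose groups did not overlap were thus all in the abundant part of the set, but the most abundant, Actb, was not among them. Arf1, Plaur and Rhoa also had the shortest models, with 2089, 1396 and 2126 exon bases, against 2679 for Actb, 6298 for Dvl2, 9633 for Insr, 10109 for Mtor and a median of 3804.5 over all genes. Abundance moved with the pattern across the table: libraries did not overlap, with wild type higher, for 30.0% of the 1902 genes with a mean of at least 100 CPM, compared with 20.4% of all genes. The share was 18.5% among the 2421 genes with at most 2126 exon bases, and 29.2% among the 473 genes that met both limits. Median log2 fold changes stayed near 0, at 0.044 for the 1902 genes, -0.064 for the 2421 and -0.031 for the 473. The share with knockout higher was not counted within these limits. The part of abundance and depth in the values of Arf1, Plaur and Rhoa was not tested.

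The final exon block, which holds most of a typical 3' untranslated region, made up 61.5% of the Arf1 model (1284 bases), 60.8% of Rhoa (1292 bases), 53.0% of Insr (5102 bases) and 45.5% of Plaur (635 bases). It made up 30.9% of Actb (827 bases), 22.6% of Dvl2 (1425 bases) and 8.30% of Mtor (839 bases), and the median over the 10809 genes with more than 1 block was 36.9%. For Dvl2 this block lies in the stretch beyond the RefSeq end of the gene. Insr, with the longest final block of the 7 and a share above that median, was among the transcripts with overlapping groups. The shares of Arf1, Rhoa and Plaur, whose groups did not overlap, were above the median too. A link between the size of this block and recovery was not tested.

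Family relatives show how far a difference was shared by closely related genes. Among all 11194 genes, DESeq2 called 434 with wild type above knockout and 466 with knockout above. Of 14 measured relatives, 0 were called by edgeR and 3, all with wild type above, by DESeq2. Their median log2 fold change was 0.47. An unadjusted p under 0.05 in edgeR was found for 8, beside 10.4% of all genes with wild type higher and 9.99% with knockout higher. All of these 8 lay higher in wild type except Acta1, the actin of skeletal muscle fibres, at -1.40 (adjusted p = 0.117 in edgeR), whose libraries overlapped and which is also on the muscle fibre list. Arf1 was not set apart from the other Arf GTPases: Arf2, Arf3, Arf4, Arf5 and Arf6 all had higher values in every wild type library than in either knockout library. That pattern was shown by 20.4% of all genes and by 30.0% of those with a mean of at least 100 CPM. The log2 fold changes of Arf2 to Arf6 were 0.90, 0.50, 0.78, 0.59 and 0.78. None of them passed the adjusted threshold in edgeR (0.0612 for Arf4 and 0.0794 for Arf6, the smallest). Within each library, the log2 ratio of Arf1 to the mean of these 5 relatives was 1.54 ± 0.08 in wild type (SD, n = 3) and 1.68 ± 0.06 in knockout (SD, n = 2). Arf1 was thus a little lower, relative to its family, in wild type, by 0.14 log2 units.

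Actb and Actg1, which encode the nearly identical cytoplasmic beta- and gamma-actins, had estimates on opposite sides of 0. Actg1 had 1149, 907 and 1210 CPM in wild type 1 to 3 against 891.8 and 544.6 CPM in knockout 1 and 2, without overlap, and a log2 fold change of 0.60 (SE 0.22, adjusted p = 0.156 in edgeR). The log2 ratio of Actb to Actg1 was 0.25, 0.65 and -0.11 in wild type 1 to 3 and 0.86 and 1.18 in knockout 1 and 2, so the ratio was higher in both knockout libraries than in any wild type library. Coding exons of the pair are similar enough that reads may be shared between them.

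Rhoa had a log2 ratio to the mean of Rhob and Rhoc of 0.13 ± 0.11 in wild type (SD, n = 3) and -0.13 ± 0.09 in knockout (SD, n = 2). Rhob lay with Rhoa at 0.44 and Rhoc at 0.11. Dvl2 was lower relative to Dvl1 and Dvl3 in wild type, at -1.23 ± 0.20 (SD, n = 3) against -0.82 ± 0.11 in knockout (SD, n = 2); Dvl1 itself was at -0.31 and Dvl3 at 0.54. Insr and Igf1r kept overlapping ratios, 1.41 ± 0.12 (SD, n = 3) and 1.56 ± 0.16 (SD, n = 2). These 5 ratios were compared with a two-sided exact permutation test, in which 3 against 2 libraries cannot go below p = 0.2. In this exact test the ratios of Arf1, Rhoa, Dvl2 and Actb reached that limit (p = 0.2, adjusted over the 5 ratios 0.25), and that of Insr did not (p = 0.6), so this test could not place any of them below 0.05.

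**Figure D3:**
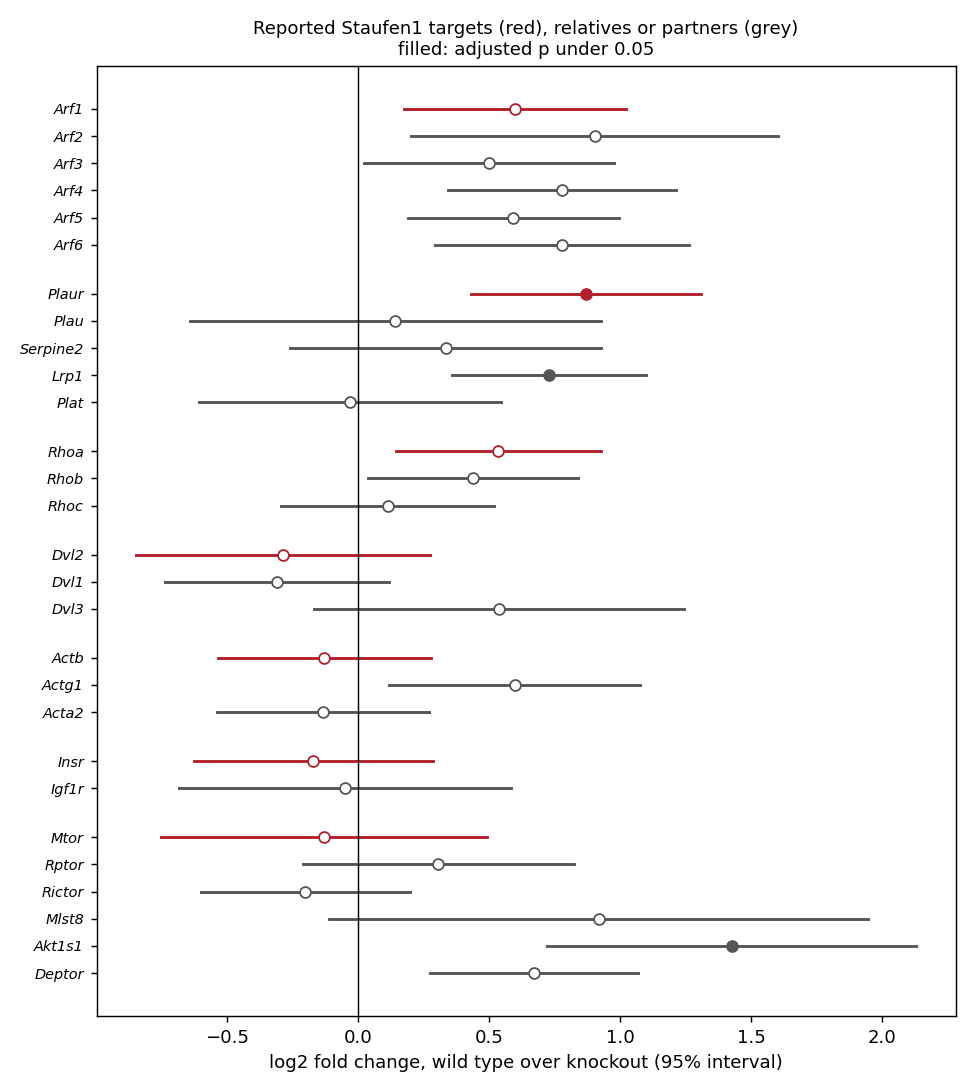
Log2 fold change, wild type over knockout (horizontal axis), with its 95% interval for the 7 transcripts (red) and for their family relatives or pathway partners (grey); filled points passed an adjusted p of 0.05 in edgeR. All 6 Arf genes lie above 0, Actb and Actg1 lie on opposite sides of 0, and Plaur, Lrp1 and Akt1s1 are the filled points.

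The pathways around the 7 transcripts showed few calls. Of 5 measured genes of the plasminogen activator system, in which the urokinase receptor acts, 1 passed as higher in wild type, 0 passed as higher in knockout and 4 did not pass; the median log2 fold change was 0.33. The called gene was Lrp1, a large endocytic receptor, at 885.9 ± 41.0 CPM in wild type (SD, n = 3) and 533.9 ± 4.61 CPM in knockout (SD, n = 2). Its log2 fold change was 0.73 (SE 0.17, adjusted p = 0.0462 in edgeR). The count of calls in this list fell to 0 when wild type 1, wild type 3, knockout 1 or knockout 2 was left out. Plau, the ligand of the receptor, was measured at only 14.8 and 13.7 CPM on average and had a log2 fold change of 0.14.

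Of 12 genes of the mTOR complexes and their regulators, 1 passed as higher in wild type and 11 did not pass; their median was 0.37. The called gene was Akt1s1, whose product PRAS40 is an inhibitory subunit of mTOR complex 1. It had 31.6, 24.6 and 31.5 CPM in wild type 1 to 3 and 13.6 and 7.32 CPM in knockout 1 and 2, with a log2 fold change of 1.43 (SE 0.33, adjusted p = 0.0424 in edgeR). This call was lost when wild type 1, wild type 3 or knockout 2 was left out, which gave a count of 0. The Mtor transcript itself, with overlapping libraries, did not share this difference.

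In the remaining lists 0 genes were called in either direction by edgeR, and the smallest p values are given for orientation. Of 14 genes of the Arf1 coat and vesicle pathway, 3 had an unadjusted p under 0.05; the coatomer subunits Copa (0.70, adjusted p = 0.0740) and Copb2 (0.54, adjusted p = 0.196) had the smallest in edgeR, and the median was 0.15. Of 14 genes of Wnt signalling, 2 had an unadjusted p under 0.05, the receptors Fzd1 (1.45, adjusted p = 0.0882 in edgeR) and Fzd4 (0.73, adjusted p = 0.170), with a median of 0.22. Among 14 genes of Rhoa signalling the median was -0.09, and 3 had an unadjusted p under 0.05. The smallest in edgeR were those of the GTPase-activating protein Arhgap5 (1.15, adjusted p = 0.120) and of Arhgdia (0.48, adjusted p = 0.147), the inhibitor that keeps such GTPases in the cytosol. Of 11 actin filament regulators, 2 had an unadjusted p under 0.05, in opposite directions: the monomer-binding thymosin Tmsb4x (-0.59, adjusted p = 0.0753 in edgeR) and the profilin Pfn1 (0.55, adjusted p = 0.140), with a median of 0.11. Of 10 genes of insulin receptor signalling, 2 had an unadjusted p under 0.05, the substrate Irs2 (0.73, adjusted p = 0.0568 in edgeR) and the adaptor Grb10 (0.53, adjusted p = 0.131), with a median of 0.25. Over all genes the median was 0.00, and 10.4% had an unadjusted p under 0.05 with wild type higher and 9.99% with knockout higher. With DESeq2, 1 gene each of the Arf1 pathway, Wnt and insulin receptor lists was called, with wild type above knockout. The 1 actin regulator called had knockout above wild type, and Rhoa signalling had 0 calls. Among all 11194 genes, DESeq2 called 434 with wild type above knockout and 466 with knockout above. Whether the list counts differ from that background was not tested.

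A pair of further lists bears on Staufen1 more directly. Of 8 other transcripts reported as Staufen1 targets, 5 were measured, Pax3, Klf2, Jun and Xbp1 among them, of which 0 were called by edgeR or DESeq2 and 2 had an unadjusted p under 0.05 in edgeR. Xbp1, the transcription factor of the unfolded protein response, was at 0.48 (adjusted p = 0.175 in edgeR). Jun was at 0.13 and Klf2 at -0.31, both with overlapping libraries. The median of the 5 was 0.48. Libraries did not overlap, with wild type higher, for 3 of the 5, Xbp1 and Pax3 among them, beside the 20.4% of all genes. Of 16 genes of the Staufen proteins and the decay machinery, 0 were called by edgeR or DESeq2, 1 had an unadjusted p under 0.05 in edgeR and the median was -0.02. That gene was Stau2, the paralog of Staufen1, with 9.23, 9.76 and 6.001 CPM in wild type 1 to 3 and 13.2 and 20.7 CPM in knockout 1 and 2. The corresponding log2 fold change was -1.01 (SE 0.39, adjusted p = 0.165 in edgeR), and Upf3a, a cofactor of Upf1, followed at -0.44 (adjusted p = 0.268).

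Marker sums of other cell types did not overlap between the groups, except that of the muscle fibre genes. The part of these cell types in the values of the 7 transcripts was not tested. Summed over 10 endothelial markers, the level was 1309 to 1745 CPM in wild type and 3120 and 2865 CPM in knockout 1 and 2, with 6 markers called higher in knockout. The sum over 4 red blood cell genes was 215.5 to 295.1 CPM in wild type and 471.3 and 805.2 CPM in knockout, with 3 of the 4 called higher in knockout. The sum over 8 macrophage and leukocyte markers, cells in which Plaur is also well expressed, was 317.5 to 499.9 CPM in wild type and 538.8 and 535.1 CPM in knockout, with 0 markers called by edgeR, 0 at an unadjusted p under 0.05, and Adgre1 and Itgam not among the genes of the table. The sum over 10 markers of fibro-adipogenic progenitors was 4223 to 6202 CPM in wild type and 3646 and 3638 CPM in knockout; Col1a1 and Col3a1 were called higher in wild type, and Ly6a, at -0.87, was called higher in knockout. The sum over 8 muscle fibre genes was 502.1 to 605.0 CPM in wild type, 388.1 CPM in knockout 1 and 2434 CPM in knockout 2, with 1 gene, Casq1, called higher in knockout. Over all genes, the shares called by edgeR were 1.05% with wild type higher and 1.00% with knockout higher.

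**Figure D4:**
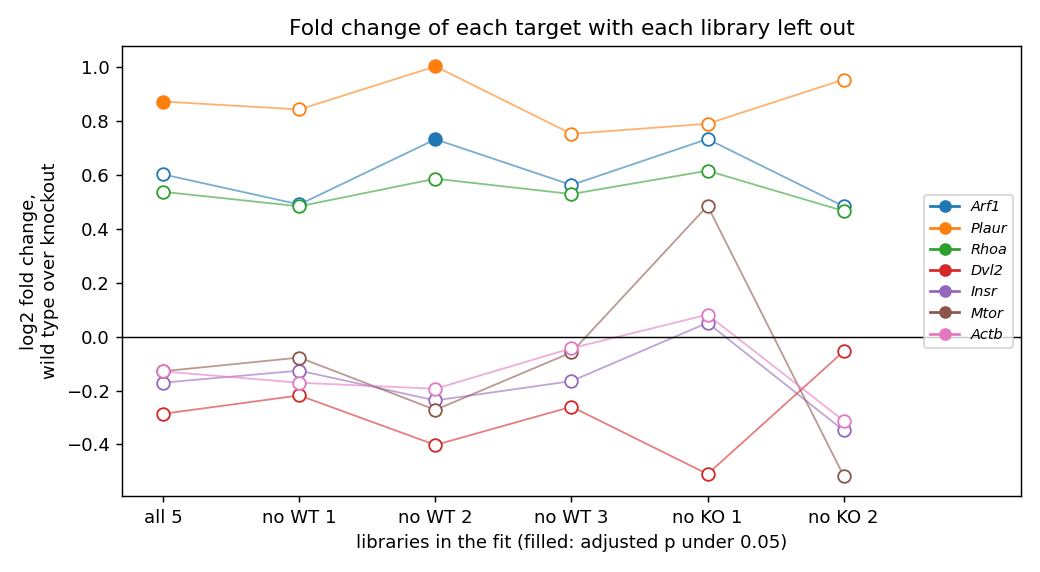
Log2 fold change, wild type over knockout (vertical axis), of each of the 7 transcripts in the fit of all 5 libraries and in fits that leave out 1 library each (horizontal axis); filled points passed an adjusted p of 0.05 in edgeR. Plaur, Arf1 and Rhoa lie between 0.47 and 1.00 in every fit, Dvl2 lies below 0 throughout, and Mtor, Insr and Actb cross 0 when knockout 1 is left out.

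The fits with 1 library left out separated the transcripts into those whose value held and those whose value depended on 1 library. Plaur ranged from 0.75 to 1.00, Arf1 from 0.48 to 0.73 and Rhoa from 0.47 to 0.61. Since the libraries of these 3 do not overlap between groups, their direction could not turn in such fits. Without knockout 1, Actb was at 0.08, Insr at 0.05 and Mtor at 0.48, so their small negative values depended on knockout 1. Dvl2 was at -0.06 without knockout 2 and at -0.51 without knockout 1.

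The nearest gene to each transcript was taken as the one with the smallest Euclidean distance between log2 CPM values, centred on their mean over the 5 libraries, among 10625 named genes. It was Rora for Arf1 (distance 0.06), Slc25a5 for Plaur (0.07), Caml for Dvl2 (0.06), Csk for Rhoa (0.09), Cox19 for Actb (0.04), Jmjd6 for Insr (0.08) and Apobec1 for Mtor (0.12). Median distances to all candidates were between 0.80 for Insr and 1.19 for Plaur. Over only 5 libraries, close neighbours are found for nearly any profile, and none of the 7 transcripts was the nearest gene of another.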

How the data were processed

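The authors deposited raw counts per gene, in whole numbers, for 5 anti-Staufen1 immunoprecipitates, with gene models and exon lengths in bases. The authors' tools, per the submitters' processing notes, were STAR, Trim Galore, edgeR and Subread's featureCounts, on the mm10 build; for their versions and the strand setting, the sources used here give nothing. Per the labels' protocols, 100 pg of RNA was reverse-transcribed from oligo(dT) primers and read as 101 bp pairs. The table appears to have been filtered on expression before deposit, since the third-highest CPM of a gene was never below 3.02; a gene found in knockout alone would not be in it.

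The deposited counts were fitted with edgeR 4.0.16 under R 4.3.3 (filterByExpr, which removed no gene, TMM scaling, quasi-likelihood F-test, two-sided, Benjamini-Hochberg over 11194 genes, threshold 0.05). The test had 14.1 degrees of freedom, 11.1 of them from the prior that pools the spread over genes. DESeq2 1.42.0 and limma 3.58.1 served as alternatives. Replicate libraries differed by more than counting error (chi-square per degree of freedom 17.7 to 258.5).

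The 7 members and the lists were chosen with earlier results of these data known. Named besides them were Stau1, the genes of each list that passed (or the 2 with the smallest p), the family relatives and the nearest gene by profile; Acadvl and Plau were added after their values were seen, as were the family ratios and the shares by abundance and length. Lists were described by counts and medians only, and 1 list member is not reported here. RefSeq (GRCm38.p6) matched 10824 of 10826 Entrez identifiers.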

Additional observations from a re-analysis of the deposited data

How the results depend on the processing

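Each fit below changes 1 choice, except that DESeq2 and limma-voom bring their own model of the spread and test, and DESeq2 also its own scaling. The fit with no filter, counted among the 14 alternatives, was the main fit again, since filterByExpr removed no gene. Arf1, Plaur, Rhoa and Dvl2 kept their direction in all 14 alternatives, and Actb and Insr in all but the fit without knockout 1. Plaur was weaker, past no threshold, with RLE factors (0.85), total counts (0.83) and limma-voom (0.89); Arf1 passed with DESeq2 (0.58). The number of the 7 called higher in wild type was 2 with DESeq2 and 0 with limma-voom, RLE factors or total counts, and none was called higher in knockout in any alternative. After thinning to the shallowest library, Mtor and the median of the 7 both stood at 0.071.

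Calls over all genes were 118 higher in wild type and 112 in knockout. They were 434 and 466 with DESeq2, 8 and 14 with limma-voom, and 194 and 218 with at least 50 counts in every library. With total counts the split was 93 and 143. The median of all genes moved by at most 0.04 log2 units from 0 in any fit (-0.04 with total counts).

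With the replicate number as a block (replicate block), 288 genes were called higher in wild type and 324 in knockout. Plaur stayed called and Mtor turned to 0.014. Family relatives then had 3 calls in wild type and 1 in knockout, insulin receptor signalling 1 and Wnt signalling 1. Deviations from the group means correlated at 0.05 and 0.04 across genes between libraries with the same number. With 2 knockout libraries these deviations mirror each other, so the other pairings gave -0.05 and -0.04 by construction. These correlations therefore cannot decide whether libraries with the same number were paired, and the labels do not say so. Wild type 3 has no knockout library of its number, so in the blocked fit it added nothing to the comparison of the groups. The calls of that fit thus rest on wild type 1 and 2 against knockout 1 and 2, fewer libraries than in the main fit.

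Among the lists, DESeq2 called 3 family relatives, 1 gene each of the Arf1 pathway, insulin receptor signalling and Wnt signalling, and 2 of the mTOR list as higher in wild type, and 1 actin regulator as higher in knockout. The filter of 50 counts gave 1 call each for the Arf1 pathway, family relatives and insulin receptor signalling. Thinning gave 1 call for family relatives, 1 for insulin receptor signalling (median 0.17) and 0 for the mTOR list. Limma-voom gave 0 for the mTOR list and 0 for the plasminogen activator list, as did RLE factors and total counts for the latter. With total counts the medians were 0.20 for insulin receptor signalling and 0.43 for the other reported targets.

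With each library left out in turn, calls over all genes ran from 11 to 176 (wild type) and from 23 to 172 (knockout), and those among the 7 from 0 to 2. Wild type 1, wild type 3, knockout 1 and knockout 2 each took the last call away, and leaving out wild type 2 gave 2. Log2 fold changes ran from 0.75 to 1.00 for Plaur, 0.48 to 0.73 for Arf1, 0.47 to 0.61 for Rhoa, -0.51 to -0.06 for Dvl2, -0.35 to 0.051 for Insr, -0.52 to 0.48 for Mtor and -0.31 to 0.081 for Actb, and the median of the 7 from -0.19 to 0.48. List calls in wild type ran from 0 to 2 for family relatives (0 to 1 in knockout), 0 to 1 for the mTOR, plasminogen activator and Wnt lists. List medians ran from 0.33 to 0.47 for family relatives, 0.17 to 0.27 for insulin receptor signalling, 0.27 to 0.60 for the mTOR list, 0.10 to 0.58 for the plasminogen activator list, 0.30 to 0.55 for the other reported targets and -0.15 to 0.043 for Rhoa signalling. A group left with 1 library is assumed to vary like the other. The causes of these shifts were not tested. Depth was lower in both knockout libraries, and a count of 0 in knockout 2 allows up to 0.954 CPM, taking 3 counts as the upper limit.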
